A study of Homo sapiens with 2 samples.

Results

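INSIG1 and the genes around it form the sterol feedback loop of the cell, and 8 of its genes are described here in 2 RNA-seq libraries: INSIG1, INSIG2, SCAP, SREBF1, SREBF2, HMGCS1, SQLE and STARD4. They are 8 of 46427 gene rows in the deposited table, each matched by its symbol to 1 row. The members were selected on the log2 ratios of this same contrast, which were already known, so every value below is a description, and the low ratio of INSIG1 is not an independent finding. The cells are labelled as MiaPaca2, a human pancreatic adenocarcinoma cell line. The libraries were 1 from cells given iMQT_020, described in the labels as an inhibitor of a mitochondrial glutamine transporter, and 1 from cells given vehicle, both for 48 hours. The labels name no other agent and state no dose. With 1 library per treatment there is no replicate check, no p-value was computed, and the treatment cannot be told apart from any other difference between the libraries.

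Sterol regulatory element-binding proteins (SREBPs) are transcription factors made as precursors in the membrane of the endoplasmic reticulum. When membrane sterols are low, the escort protein SCAP carries them to the Golgi, where proteases release the part that enters the nucleus and turns on genes of cholesterol and fatty acid synthesis. When sterols are high, INSIG proteins hold SCAP in the endoplasmic reticulum and also promote the breakdown of sterol synthesis enzymes. INSIG1 is itself a target of the SREBPs, which makes it a widely used readout of the loop.

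The libraries held 59139157 estimated counts for iMQT_020 and 67095283 for vehicle. The marker genes went partly against the label. Of 6 epithelial markers, KRT8 and KRT18 were well covered, and KRT7 and KRT19 were at 0 in both libraries. EPCAM had 0 counts (iMQT_020) and 4 counts (vehicle), and CDH1 had 6 counts (iMQT_020) and 7 counts (vehicle). The summed level of the 6 markers was 169.8 TPM in the iMQT_020 library and 225 TPM in the vehicle library. CDKN2A, CDKN2B and MTAP lie in the 9p21 segment, which is deleted in MIA PaCa-2. CDKN2A stood at 208 TPM (iMQT_020) and 278 TPM (vehicle). CDKN2B was at 13.5 and 8.04 TPM, and MTAP at 26.2 and 33.7 TPM, in the iMQT_020 and vehicle libraries. CD44, taken as abundant in MIA PaCa-2, had 3 counts (iMQT_020) and 16 counts (vehicle). ANXA1, taken as abundant likewise, had 100 counts (iMQT_020) and 132 counts (vehicle). The identity of the line is therefore uncertain. The leukocyte markers PTPRC and CD3E were at 0 in both libraries, and LYZ was at 2 counts (iMQT_020) and 15 counts (vehicle). The endothelial markers PECAM1 and CDH5 had 29 and 4 counts in the iMQT_020 library and 0 and 3 in the vehicle library. Of the fibroblast markers, COL1A1 was at 11.1 TPM (iMQT_020) and 16.5 TPM (vehicle), and PDGFRB had 0 counts (iMQT_020) and 6 counts (vehicle). The mesenchymal marker VIM was at 438 TPM (iMQT_020) and 403 TPM (vehicle). The part of these differences in the results below was not tested, and in bulk RNA fewer cells of a type and less RNA per cell cannot be told apart.

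The promoters of the 3 genes with the lowest ratios, and of SREBF2, whose promoter carries the classical sterol element, show how these genes differ in front of their transcripts. Each line is the 250 bases before the start of the gene, 5′ to 3′ on the strand of the gene, from RefSeq on GRCh38.p14. The windows are chr7:155297628-155297877 (plus strand) for INSIG1, chr5:111512536-111512785 (minus strand) for STARD4, chr17:17836987-17837236 (minus strand) for SREBF1 and chr22:41832855-41833104 (plus strand) for SREBF2. Capitals mark the sterol element, the E-box and the CCAAT box, on either strand.
INSIG1: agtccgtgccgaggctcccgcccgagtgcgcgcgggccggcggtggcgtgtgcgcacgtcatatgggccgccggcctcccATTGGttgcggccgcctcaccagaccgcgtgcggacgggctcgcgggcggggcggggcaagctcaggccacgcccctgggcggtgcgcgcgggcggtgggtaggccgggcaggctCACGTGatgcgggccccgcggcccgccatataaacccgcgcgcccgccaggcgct
STARD4: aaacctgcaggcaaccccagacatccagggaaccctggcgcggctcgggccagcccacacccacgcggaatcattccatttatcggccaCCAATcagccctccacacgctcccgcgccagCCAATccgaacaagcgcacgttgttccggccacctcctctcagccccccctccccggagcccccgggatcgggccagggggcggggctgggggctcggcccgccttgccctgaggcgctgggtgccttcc
SREBF1: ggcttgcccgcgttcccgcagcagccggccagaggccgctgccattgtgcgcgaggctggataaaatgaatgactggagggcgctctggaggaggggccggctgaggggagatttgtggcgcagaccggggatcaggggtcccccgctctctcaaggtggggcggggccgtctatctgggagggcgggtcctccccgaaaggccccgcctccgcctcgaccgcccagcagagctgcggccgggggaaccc
SREBF2: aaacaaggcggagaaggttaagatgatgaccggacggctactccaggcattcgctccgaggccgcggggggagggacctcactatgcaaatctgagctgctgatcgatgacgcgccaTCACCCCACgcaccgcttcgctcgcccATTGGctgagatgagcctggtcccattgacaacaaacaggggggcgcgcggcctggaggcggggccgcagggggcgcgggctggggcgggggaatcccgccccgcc

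The motifs searched, on both strands, were the sterol element TCACNCCAC, the E-box CACGTG, which SREBPs can also bind, the CCAAT box bound by NF-Y, and the GC box GGGCGG bound by Sp1. In these promoters no match overlapped one of another motif. NF-Y and Sp1 are known partners of SREBPs at many sterol genes. The promoter of SREBF2 held the sterol element as TCACCCCAC, starting 133 bases before the gene, with a CCAAT box (ATTGG on this strand) 106 bases before it. Of 35116 promoter windows of the same length in the RefSeq table, 310 held the sterol element, or 0.883%. INSIG1 had an E-box 55 bases before the gene, a CCAAT box at 170 bases and 5 GC boxes, a pair of which share a base. An E-box was present in 6.34% of all windows, a CCAAT box in 32.0% and a GC box in 42.6%. STARD4 had CCAAT boxes at 161 and 130 bases, and HMGCS1 had them at 155 and 100 bases. SREBF1 held GC boxes only, and INSIG2 held 1 GC box. The window for SCAP, which does not begin at the annotated start of the gene, held an E-box and 3 GC boxes. A match is only a run of letters, and its absence says only that those letters are not in this window. Only 1 window was read per gene, so any other start of the same gene was not searched.

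**Figure D1:**
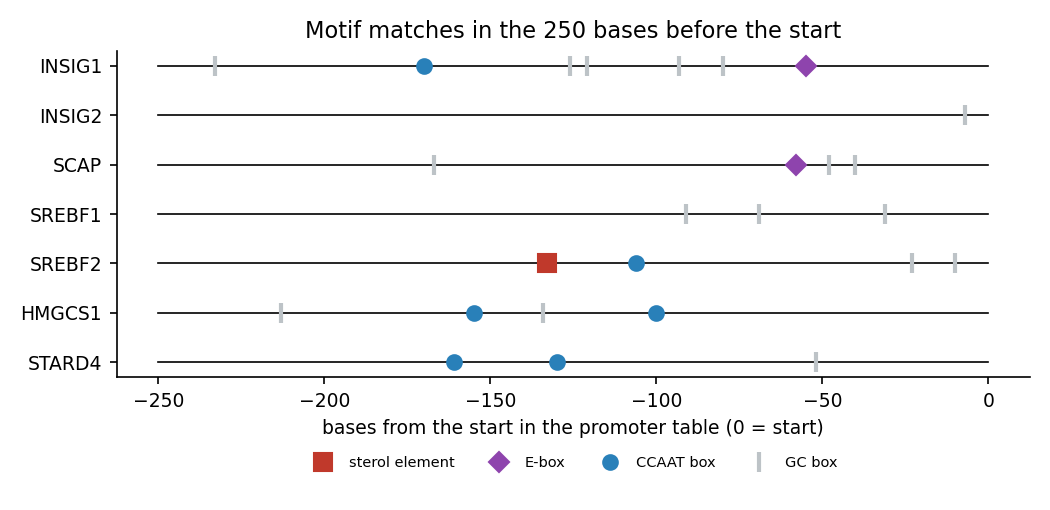
Matches of 4 motifs on either strand in the 250 bases before the start of 7 of the genes; the horizontal axis is the distance in bases from the start, and each row is 1 promoter. The sterol element stands only in the row of SREBF2, and E-boxes in the rows of INSIG1 and SCAP.

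INSIG1, the sterol-responsive anchor of SCAP, was the only 1 of the 8 genes at least 2-fold apart, and it was lower in the iMQT_020 library. STARD4, a carrier of cholesterol between membranes, and SREBF1, which encodes SREBP-1, came next, and both were more than 1.5-fold lower. SQLE and HMGCS1, enzymes of cholesterol synthesis, were lower by smaller steps. SREBF2, INSIG2 and SCAP were nearly level in the 2 libraries. Ratios are log2 of scaled counts (CPM, counts scaled to library size), iMQT_020 over vehicle, and intervals are exact 95% intervals of the ratio, covering counting error only.

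The background was 3.09% of 14805 measured genes at least 2-fold lower in the iMQT_020 library and 2.15% at least 2-fold higher, 5.23% in all. Genes with 50 counts or more in either library were taken as measured, and all 8 were. Of the 8, 1 was at least 2-fold lower and 0 at least 2-fold higher. At 1.5-fold, 3 of 8 were lower and 0 higher, against 10.2% and 6.30% of all measured genes. Because the genes were picked with this contrast known, nothing is read from these shares.

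**Figure D2:**
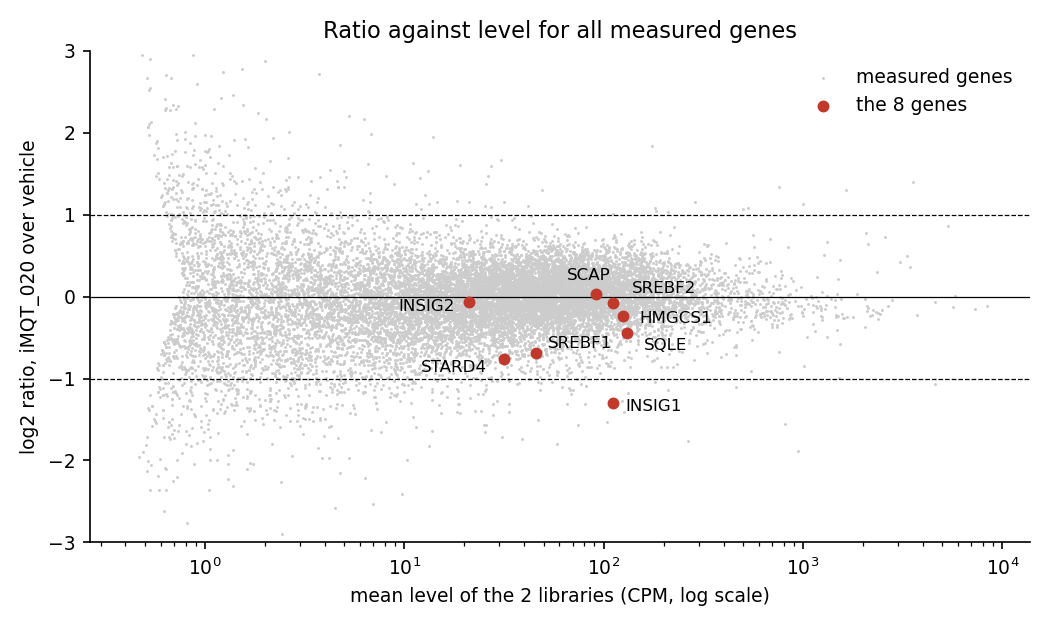
Log2 ratio (iMQT_020 over vehicle) against the mean level in CPM on a log scale for the measured genes, grey, and the 8 genes, red, with dashed lines at 2-fold. INSIG1 at −1.30 lies below the lower line, the other 7 lie between the lines, and 25 measured genes fall outside the plotted range of −3 to 3.

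INSIG1 lies on chromosome 7 from 155297878 to 155310235 (GRCh38). It had 3798 counts in the iMQT_020 library and 10561 in the vehicle library, or 64.1 and 157.7 CPM. The deposited levels were 50.4 TPM (iMQT_020) and 119 TPM (vehicle), and 20.1 FPKM (iMQT_020) and 49.1 FPKM (vehicle). The log2 ratio was −1.30 (−1.35 to −1.25), that is 2.46-fold lower with iMQT_020. Of 9312 genes that reached 1000 counts in either library, 34 had a lower ratio, and 0.956% of them were at least 2-fold lower. INSIG1 had a high count and a ratio near the low end of the well-covered genes, but it was selected with that ratio known.

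INSIG2, the paralog that also holds SCAP but is not a strong SREBP target, lies on chromosome 2 from 118088471 to 118110997. It had 1229 counts in the iMQT_020 library and 1457 in the vehicle library, and its levels were 13.8 TPM in both. The log2 ratio was −0.07, and its interval, −0.18 to 0.04, included 0. The paralogs therefore differed in their ratios by more than counting error, since their intervals did not overlap. Per length, INSIG1 was 3.66 times as abundant as INSIG2 in the iMQT_020 library and 8.66 times as abundant in the vehicle library. In both libraries INSIG1 remained the more abundant of the pair.

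SCAP, the sterol-sensing escort, lies on chromosome 3 from 47413681 to 47477127. It had 5487 counts (iMQT_020) and 6075 counts (vehicle), with levels of 51.8 TPM and 50.2 TPM. Its log2 ratio of 0.03 (−0.02 to 0.08) was the only 1 of the 8 above 0, and the interval included 0. The summed TPM of INSIG1 and INSIG2 was 1.24 times that of SCAP in the iMQT_020 library and 2.66 times in the vehicle library. These are ratios of transcripts, and protein levels were not measured.

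SREBF1 and SREBF2 encode the transcription factors. SREBF1, on chromosome 17 from 17811334 to 17836986, had 2075 counts in the iMQT_020 library and 3766 in the vehicle library, or 17.1 and 26.4 TPM. The log2 ratio of SREBF1 was −0.68 (−0.76 to −0.61), or 1.61-fold lower with iMQT_020. SREBF2, on chromosome 22 from 41833105 to 41907305, had 6440 counts (iMQT_020) and 7677 counts (vehicle), or 48.6 and 49.3 TPM. Its log2 ratio was −0.08 (−0.13 to −0.03), below 0 by more than counting error but small in size, and −0.02 from deposited TPM, outside that interval. The intervals of the pair did not overlap, and SREBF2 was 2.85 times as abundant as SREBF1 in the iMQT_020 library and 1.87 times in the vehicle library. The counts sum all transcripts of a gene, 9 RefSeq transcripts for each of the pair, so the SREBP-1a and SREBP-1c forms were not separated.

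Among the genes that SREBPs act on, HMGCS1 makes HMG-CoA at the start of the mevalonate pathway. It lies on chromosome 5 from 43287470 to 43313412 and had 6766 counts (iMQT_020) and 9033 counts (vehicle), or 51.6 and 58.0 TPM. Its log2 ratio was −0.24 (−0.29 to −0.20). SQLE, squalene epoxidase, a controlled step later in the pathway, lies on chromosome 8 from 124998505 to 125022283. It had 6582 counts in the iMQT_020 library and 10151 in the vehicle library, or 87.5 and 115 TPM. The log2 ratio of SQLE was −0.45 (−0.49 to −0.40), lower than that of HMGCS1 by more than counting error.

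STARD4, a soluble sterol carrier, lies on chromosome 5 from 111496033 to 111512535. It had 1386 counts in the iMQT_020 library and 2666 in the vehicle library, or 9.04 and 16.4 TPM. Its log2 ratio was −0.77 (−0.86 to −0.67), and the deposited FPKM gave −0.91. The interval of STARD4 overlapped that of SREBF1 and of no other gene of the 8, and the interval of INSIG1 overlapped none. At such counts the intervals are narrow and most pairs of the 8 do not overlap, so nothing further is read from this.

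**Figure D3:**
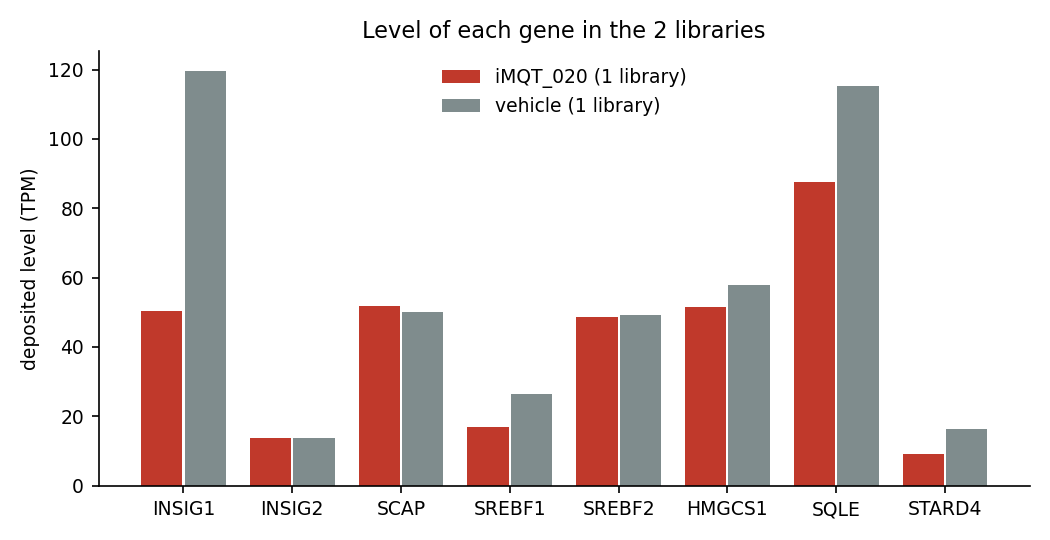
Deposited level in TPM of each of the 8 genes, with the iMQT_020 library in red and the vehicle library in grey; each bar is 1 library, so there are no error bars. INSIG1 stands at 50.4 TPM in the iMQT_020 library and 119 TPM in the vehicle library, while INSIG2, SCAP and SREBF2 have bars of almost equal height.

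The order of the levels differed between the libraries. In the iMQT_020 library SQLE was highest per length at 87.5 TPM, and SCAP, HMGCS1, INSIG1 and SREBF2 followed between 51.8 and 48.6 TPM. In the vehicle library INSIG1 and SQLE led at 119 and 115 TPM, followed by HMGCS1, SCAP and SREBF2 between 58.0 and 49.3 TPM. SREBF1 was sixth in both, and STARD4 and INSIG2 were the lowest in both, in opposite order. INSIG1 thus ranked 4 of 8 in the iMQT_020 library and 1 of 8 in the vehicle library. No spread between replicates is available to say which neighbours in this order differ.

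The size of the ratios depended in part on the unit of measurement, and their direction did not. From the deposited TPM the log2 ratio of INSIG1 was −1.24, that of STARD4 −0.86 and that of SREBF1 −0.63. SQLE was at −0.40 and HMGCS1 at −0.17 by TPM, both outside their counting intervals, while INSIG2 was at −0.00 and SCAP at 0.05. The ratio in these libraries also varied with sequence: the median over genes was 0.13 at the low end of GC content (lowest of 10 equal bins) and −0.31 at the high end. Centred jointly on GC content and transcript length, INSIG1 was at −1.35, STARD4 at −0.95, SREBF1 at −0.63, SQLE at −0.49 and HMGCS1 at −0.39. SREBF2 was then at −0.07, INSIG2 at −0.20 and SCAP at 0.15. After centring, STARD4, HMGCS1, INSIG2 and SCAP lay outside their counting intervals. The low ratio of INSIG1 was as large after this centring as before it.

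**Figure D4:**
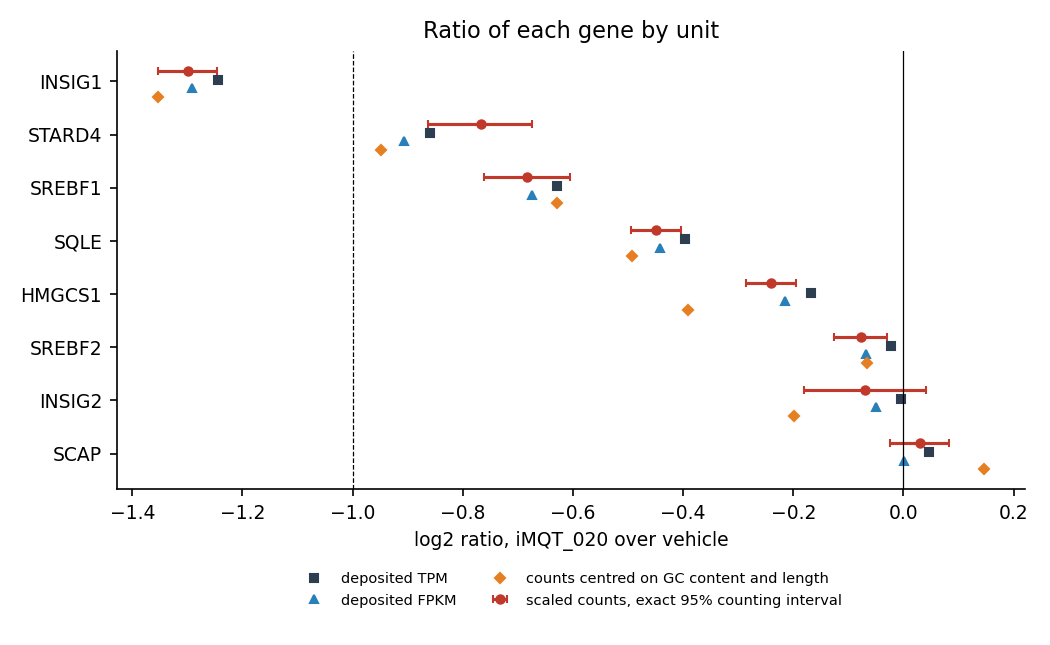
Log2 ratio (iMQT_020 over vehicle) of each gene from scaled counts with its exact 95% counting interval, from deposited TPM, from deposited FPKM and from counts centred on GC content and transcript length; the dashed line marks 2-fold. INSIG1 lies beyond the dashed line by all 4 measures, from −1.35 to −1.24, and the order of the 4 lowest genes is the same in counts, TPM and FPKM.

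Other transcripts are annotated over or beside these genes. INSIG1-DT, a long non-coding RNA that starts beside INSIG1 and is transcribed away from it, had 20 counts in the iMQT_020 library and 95 in the vehicle library. Its log2 ratio was −2.05 (−2.85 to −1.36), the same direction as INSIG1. The RefSeq model of INSIG1-DT, on chromosome 7 from 155288596 to 155298980, shares 1103 bases with INSIG1, while the GENCODE 44 model ends before INSIG1 begins. Since no source states the strand setting of the counting, reads of the pair cannot be told apart; the INSIG1-DT counts equalled 0.527% of those of INSIG1 in the iMQT_020 library and 0.900% in the vehicle library. STARD4-AS1, antisense to STARD4, had 19 counts (iMQT_020) and 9 counts (vehicle), equal to 1.37% and 0.338% of those of STARD4. SREBF2-AS1 had 20 counts in each library. RAI1, which overlaps the end of SREBF1 by 120 bases, had 2645 counts (iMQT_020) and 2993 counts (vehicle), a log2 ratio of −0.00 that did not follow SREBF1.

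The microRNAs of the miR-33 family, which lie in introns of SREBF2 and SREBF1 and are known to repress cholesterol export, were not readable here. MIR33A was listed at 0 in both libraries and MIR33B at 0 (iMQT_020) and 1 count (vehicle).

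The other genes of the pathway were read from 5 lists, none of which had a member at least 2-fold apart. Over all measured genes the median log2 ratio was −0.02, and 52.7% were below 0. The 8 genes themselves had a median of −0.34, with 7 below 0. Of 20 further cholesterol synthesis enzymes, 15 were below 0 and 5 above, with a median of −0.25 and a range of −0.54 to 0.29. The median of these enzymes was −0.16 after centring on GC content and length. TM7SF2, a sterol reductase, had 338 counts (iMQT_020) and 555 counts (vehicle) and a log2 ratio of −0.54, which was −0.13 after centring on GC content and length. LSS, which closes the sterol ring system, and DHCR7, the last reductase of the pathway, were at −0.42 each. LBR, a sterol reductase that also anchors chromatin at the nuclear envelope, was the most abundant by counts, with 28587 counts (iMQT_020) and 31243 counts (vehicle), and its log2 ratio was 0.05.

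The list of 15 genes for SREBP processing and INSIG turnover was split, 8 above 0 and 7 below, with a median of 0.11. That median became −0.10 after centring on GC content and length. By deposited TPM 5 of the 15 were below 0 and the median was 0.23, and by deposited FPKM the median was 0.18. SPRING1, a cofactor of the site-1 protease that cuts SREBPs, had 5852 counts in the iMQT_020 library and 4405 in the vehicle library. Its log2 ratio was 0.59 (0.53 to 0.64), on the other side of 0 from INSIG1. The ratio of SPRING1 was smaller, and below that interval, by deposited TPM (0.38), by deposited FPKM (0.34) and after centring (0.43). RNF145, a ubiquitin ligase of the endoplasmic reticulum that acts on SCAP, was at 0.41. PGRMC1, a membrane protein that binds INSIG1, was at −0.40. TMED2, a cargo receptor of the early secretory pathway, was the most abundant of the list by counts, at 0.16.

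Of 11 fatty acid targets of SREBP-1, 8 were below 0 and 3 above, with a median of −0.30 and a range of −0.68 to 0.32. Over all measured genes 52.7% were below 0, and the list was chosen with earlier results known, so nothing is read from this share. SCD, the desaturase that makes monounsaturated fatty acids, had 34395 counts in the iMQT_020 library and 62341 in the vehicle library. Its log2 ratio, −0.68 (−0.70 to −0.66), lay inside the interval of SREBF1. FADS1, a desaturase of polyunsaturated fatty acids, was at −0.64 and the elongase ELOVL6 at −0.42.

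Genes of cholesterol uptake, storage and traffic had a median of −0.17, with 10 of 16 below 0. STARD5, a sterol carrier of the same subfamily as STARD4, had 136 counts (iMQT_020) and 275 counts (vehicle) and a log2 ratio of −0.84 (−1.15 to −0.54). The lipoprotein receptor LRP8 was at −0.72 with 859 and 1597 counts in the iMQT_020 and vehicle libraries. TMEM97, a sterol-regulated binding partner of the lysosomal cholesterol exporter NPC1, was at −0.48.

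The liver X receptors (LXRs) sense oxysterols and turn on cholesterol export, and SREBF1 is among their targets. Of 9 LXR receptors and targets, 5 were below 0 and 4 above, with a median of −0.13, or −0.09 with deposited TPM. ABCG1, a cholesterol exporter, had 52 counts (iMQT_020) and 98 counts (vehicle), a log2 ratio of −0.73 (−1.25 to −0.24). From deposited TPM the log2 ratio of ABCG1 was −2.13, so the size for this sparse gene depended on the unit. LPCAT3, which adds polyunsaturated chains to phospholipids, was at −0.71. SMPDL3A, a phosphodiesterase induced by LXRs, was at 0.44, and the receptor partner RXRA at 0.07. The receptors and their targets thus lay on both sides of 0.

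**Figure D5:**
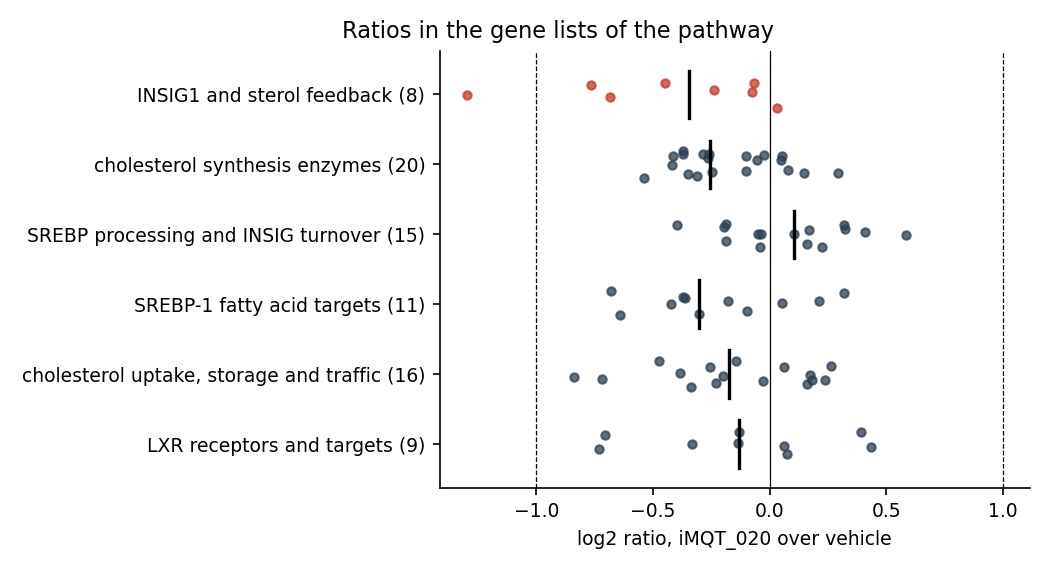
Log2 ratio (iMQT_020 over vehicle) of every measured gene of the 8-gene set, red, and of 5 lists of the pathway, dark; each point is 1 gene, black bars are medians, dashed lines mark 2-fold, and the number of genes is in brackets. INSIG1 is the only point beyond 2-fold, and the medians run from −0.34 in the 8-gene set to 0.11 in the list of SREBP processing and INSIG turnover. The median of that list is −0.10 after centring on GC content and length, and 0.23 with deposited TPM.

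The 3 genes reaching 1000 counts in either library whose ratios were nearest to that of INSIG1, over these 2 libraries, were RHPN1, NXT1 and UBE2C. RHPN1 had 373 counts (iMQT_020) and 1035 counts (vehicle). NXT1, a nuclear export factor, had 635 counts (iMQT_020) and 1774 counts (vehicle). UBE2C, a ubiquitin-conjugating enzyme of mitosis, had 2738 counts (iMQT_020) and 7653 counts (vehicle). Their log2 ratios were −1.30, −1.31 and −1.31, a likeness of 1 ratio that says nothing of shared control.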

How the data were processed

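RNA-seq was read from 2 libraries, 1 per treatment. Per the labels' protocols, TRIzol was used to extract total RNA, and HISAT2 with Bowtie2 aligned reads to GRCh38. The submitters' processing notes also name StringTie and edgeR, without a version or role. How reads were counted, and with what strand setting, is not given in the sources used here. For each gene the authors deposited an estimated count (a whole number), an FPKM value and a TPM value, per the file headers. The second deposited table repeats FPKM for some of the genes. Columns were matched to samples by name, and 0 columns of sample values were left unassigned.

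Counts were scaled by TMM in edgeR 4.0.16 (R 4.3.3), with factors of 1.00 (iMQT_020) and 0.998 (vehicle). The log2 ratio used a prior count of 0.5. Genes with 50 counts or more in either library were taken as measured. With no replicates, genes were counted by a 2-fold rule. Clopper-Pearson intervals at 95% treat the estimated counts as whole reads and cover counting error only. Positions and promoters are RefSeq, GRCh38.p14. INSIG1-DT was matched by its gene ID. Promoters were read for 7 of the 8 genes, all but SQLE. GC content and length were taken from canonical GENCODE 44 transcripts and covered 93.6% of the measured genes.

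The 8 genes and the lists were chosen with earlier results of these data known. Named genes were the 8, the 3 with the largest absolute ratio and the most abundant in each list, the 3 nearest to INSIG1 in ratio, and genes annotated over a member. Calculations were tested on simulated data. Python 3.11.15, numpy 2.4.6, pandas 2.3.3 and scipy 1.17.1 were used. Alternatives were median of ratios (DESeq2 1.42.0), total counts or upper quartile scaling, totals without mitochondrial and rRNA genes, a prior count of 5, deposited FPKM and TPM with and without a pseudocount of 1 (for genes at 1 or more in a library), minimum counts of 10, 200 or none, protein-coding genes, a 1.5-fold rule, a rule that the whole counting interval lie past 2-fold, and, chosen after seeing the data, centring on GC content and length in 10 bins each.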

Additional observations from a re-analysis of the deposited data

How the results depend on the processing

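The log2 ratio of INSIG1 stayed between −1.35 and −1.23 in all 11 settings that gave it, and INSIG1 was at least 2-fold lower in each. With deposited TPM it was −1.24, and −1.23 on log2(TPM + 1), both just outside its counting interval. SREBF2, HMGCS1 and SQLE also left their intervals with TPM, and STARD4 with FPKM and no pseudocount. SREBF1 left its interval with either unit once a pseudocount was added. Centring on GC content and length put INSIG2 (−0.20), SCAP (0.15), HMGCS1 (−0.39) and STARD4 (−0.95) outside theirs. SCAP stayed above 0 and the other 6 genes below 0 in the same 11 settings. The number of the 8 genes past the fold rule was 1 in all settings except the 1.5-fold rule, which took 3. The median of the 8 genes ran from −0.44 to −0.28 over all settings. That of the SREBP processing list changed sign with centring, and ran from −0.10 there to 0.23 with deposited TPM. The settings on FPKM or TPM took genes at 1 or more in a library in place of the count minimum. That drops ABCA1 and ABCG1, and the median of the remaining LXR genes was then 0.00 with TPM. The median of the uptake, storage and traffic list was −0.11 on log2(TPM + 1). The number of all measured genes past the rule depended far more on the settings. There were 318 higher and 457 lower, but 48 higher and 118 lower on log2(FPKM + 1), 140 higher and 223 lower on log2(TPM + 1), and 143 higher and 369 lower with FPKM and no pseudocount, all with the changed set of genes. A minimum of 10 counts gave 1236 higher and 1008 lower, a minimum of 200 gave 89 higher and 244 lower, and no minimum gave 3503 higher and 2756 lower. Protein-coding genes gave 209 higher, the 1.5-fold rule 933 higher and 1514 lower, and the counting interval rule 136 higher and 181 lower. A higher minimum leaves fewer genes to count, a 1.5-fold rule can only take more genes, and the counting interval rule can only take fewer. A pseudocount pulls ratios towards 0. The cause of the other shifts was not tested. No paired analysis was possible because each treatment has 1 library. Depth did not limit the 8 genes, each with over 1000 counts per library, but variation between cultures is unknown.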

Other observations

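A count divided by its FPKM and by the total count of its library gives, once scaled to bases, the transcript length that the deposited values imply. This length depends on which transcripts of a gene the reads were given to. For STARD4 it was 6509 bases in the iMQT_020 library and 5890 bases in the vehicle library, a ratio of 1.11. For the other 7 genes the ratio lay between 0.986 and 1.02, and for INSIG1 it was 0.998. Of 8620 genes with at least 1000 counts in both libraries, 1.66% had a ratio as high as that of STARD4, and the central 95% ran from 0.930 to 1.08. STARD4 has 16 RefSeq transcripts in the deposited table, and the values are given per gene, so which transcripts differed was not tested. Its log2 ratio was −0.77 by counts and −0.91 by FPKM.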
